A study of Mus musculus with 8 samples.

Results

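A group of 10 transcription and signalling regulators that many cells switch on within minutes of a stimulus or under stress was examined in mouse liver: Fos, Jun, Junb, Atf3, Egr1, Ier2, Ier3, Myc, Klf6 and Cebpb. Every probe set that the platform annotation pairs with exactly 1 of these 10 genes was taken, which gave 14 probe sets among 22690 on the array, for 10 of 12393 genes. The samples were livers of TrxR1/Gsr-null mice (4 animals) and of WT mice (4 animals), with 1 Affymetrix 3′ array for each animal. All 8 mice were females aged 4 weeks, the strain is labelled C57BL/6J, and the livers were taken in the late morning. Both named genes encode NADPH-dependent reductases: TrxR1 (gene Txnrd1) keeps cytosolic thioredoxin reduced, and Gsr keeps glutathione reduced. The labels do not give the alleles, the deleted parts of the genes or the cell type in which a deletion acts. The series title names the Nrf2 response, the antioxidant gene programme.

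Immediate early genes need no new protein for their induction. Growth factor and stress kinases act on factors already bound at their promoters, such as SRF with its partners and CREB, and the messages decay quickly once the signal ends. In liver this programme is known for its brief activation after partial hepatectomy and during inflammation. Fos proteins pair with Jun proteins to form AP-1, while Atf3 and Cebpb encode proteins of the same leucine zipper class, Atf3 as a target of the ATF4 stress pathway and Cebpb as a possible partner of ATF4.

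Promoter letters are shown for the 5 members whose windows held a stimulus or stress motif among those searched, other than Cebpb. They come from RefSeq for the build GRCm38.p6, where 7 of the 10 members were matched. Each run is the 250 bases before the gene's start on the gene's own strand, and capitals mark the motif matches. The windows are chr12:85473640-85473889 (plus strand) for Fos, chr8:84978749-84978998 (minus strand) for Junb, chr4:95052223-95052472 (minus strand) for Jun, chr1:191183334-191183583 (minus strand) for Atf3 and chr13:5861239-5861488 (plus strand) for Klf6.
Fos: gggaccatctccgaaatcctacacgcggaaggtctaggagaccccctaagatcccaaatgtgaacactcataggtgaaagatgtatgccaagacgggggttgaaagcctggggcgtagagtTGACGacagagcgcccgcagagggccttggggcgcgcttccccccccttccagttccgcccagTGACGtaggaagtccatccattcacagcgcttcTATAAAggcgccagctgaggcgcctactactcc
Junb: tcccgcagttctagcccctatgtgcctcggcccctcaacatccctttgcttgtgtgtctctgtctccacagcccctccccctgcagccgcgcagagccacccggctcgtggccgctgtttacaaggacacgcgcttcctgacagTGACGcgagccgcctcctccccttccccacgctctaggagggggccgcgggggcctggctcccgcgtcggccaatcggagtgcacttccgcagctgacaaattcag
Jun: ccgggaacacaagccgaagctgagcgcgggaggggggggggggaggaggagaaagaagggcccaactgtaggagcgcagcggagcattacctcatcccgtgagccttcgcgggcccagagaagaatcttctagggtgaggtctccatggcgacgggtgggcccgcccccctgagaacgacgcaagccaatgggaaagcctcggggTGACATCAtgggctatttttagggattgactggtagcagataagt
Atf3: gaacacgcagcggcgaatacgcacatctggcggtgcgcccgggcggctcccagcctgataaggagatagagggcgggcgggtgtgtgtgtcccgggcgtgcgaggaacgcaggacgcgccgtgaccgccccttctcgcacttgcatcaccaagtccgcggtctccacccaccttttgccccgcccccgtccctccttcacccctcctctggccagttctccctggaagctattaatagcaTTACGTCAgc
Klf6: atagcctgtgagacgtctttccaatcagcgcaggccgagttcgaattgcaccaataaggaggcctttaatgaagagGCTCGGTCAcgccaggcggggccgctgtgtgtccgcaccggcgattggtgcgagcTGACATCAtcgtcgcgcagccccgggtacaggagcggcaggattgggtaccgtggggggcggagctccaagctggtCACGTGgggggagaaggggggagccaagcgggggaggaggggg

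In the Fos window the capitals mark a shortened cAMP response element, TGACG, beginning 129 and 66 bases before the start, and a TATA box, TATAAA, beginning 33 bases before it. Junb held TGACG 106 bases before its start. Jun held TGACATCA, an AP-1-like site known from its promoter, 45 bases before its start. Atf3 held TTACGTCA, an ATF site whose last 5 letters are also TGACG on the other strand, 10 bases before its start. Klf6 held the core of the antioxidant response element, TGACNNNGC, read on the other strand 174 bases before its start, TGACATCA 119 bases before it, and CACGTG, the E-box that Myc and Max bind, 43 bases before it. Both strands were searched. Among 32851 promoter windows of the same length, TGACG occurred in 17.8%, TGACNNNGC in 10.2%, TATAAA in 12.4%, CACGTG in 6.02%, TGACATCA in 2.93% and TTACGTCA in 0.447%. TGACATCA and TTACGTCA were added to the search after the letters had been read. The full cAMP response element TGACGTCA (1.55% of windows), the AP-1 site TGANTCA (6.75%), the composite C/EBP and ATF site TGATGNAAT (0.816%) and the serum response element core (1.47%) were also searched, and none of the 7 matched windows held one. A match describes letters only.

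Values are log2 expression after GCRMA, and differences are TrxR1/Gsr-null minus WT. A gene was called when limma's p, adjusted over all 7534 genes tested, was below 0.05. Values up to 3.38, the 40th percentile of gene means, are referred to as below the low-value limit, where the background step of the normalization weighs most. Levels of different genes are not comparable on such arrays, so only differences between livers are described. In whole liver, fewer cells of a type and less RNA per cell cannot be told apart.

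The livers were first checked as a series. Gsr averaged 6.01 ± 0.22 in TrxR1/Gsr-null livers and 7.16 ± 0.09 in WT livers, whereas Txnrd1 averaged 11.92 ± 0.19 in TrxR1/Gsr-null livers and 9.82 ± 0.17 in WT livers (SD, n = 4 each). The Txnrd1 signal went against the label and the deleted part is not stated. None of 7 hepatocyte markers was below the limit on all arrays and none was called, with summed linear levels of 43162 to 63265 in TrxR1/Gsr-null livers and 66038 to 79724 in WT livers. Their part in the results below was not tested. No marker of Kupffer cells, endothelium, stellate cells or neutrophils was called, where 6.62% of all genes were called in either direction. Kupffer markers summed to 5523 to 7779 in TrxR1/Gsr-null livers and 6773 to 11222 in WT livers. Of 5 bile duct markers measured, 2 were tested. Epcam was called higher (0.94, limma adjusted p = 0.0410), where 4.47% of all genes were, and the other differed by −0.19. The Epcam call held in 2 of 8 fits that left out a liver. WT replicates 3 and 4 had narrower value distributions (interquartile range 3.97 and 3.74) than the other 6 arrays (4.31 to 4.44). TrxR1/Gsr-null replicate 4 and WT replicate 2 stood apart in many of the genes described here. Member differences that rest on them are given with and without them. Other genes led by these livers are given as values per liver.

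None of the members was called. Of the 9 that passed the filter on low values, 0 were called higher, where 4.47% of all genes were, and 0 were called lower, where 2.15% were (6.62% in either direction). The median difference of the 9 was −0.15, with 4 above and 5 below zero, against 0.096 over all genes. Myc, Atf3, Egr1 and Klf6 had an unadjusted limma p below 0.05, that is 4 of 9, where 22.9% of all genes did. Atf3 passed the filter through the group where it was higher, so it stands among these 4 as a description only. The fit over all probe sets without a filter called none of the 14, where 2.09% of all probe sets were called higher and 0.888% lower (2.97% in either direction). A p that misses the threshold does not show that a member had the same level in both genotypes.

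**Figure D1:**
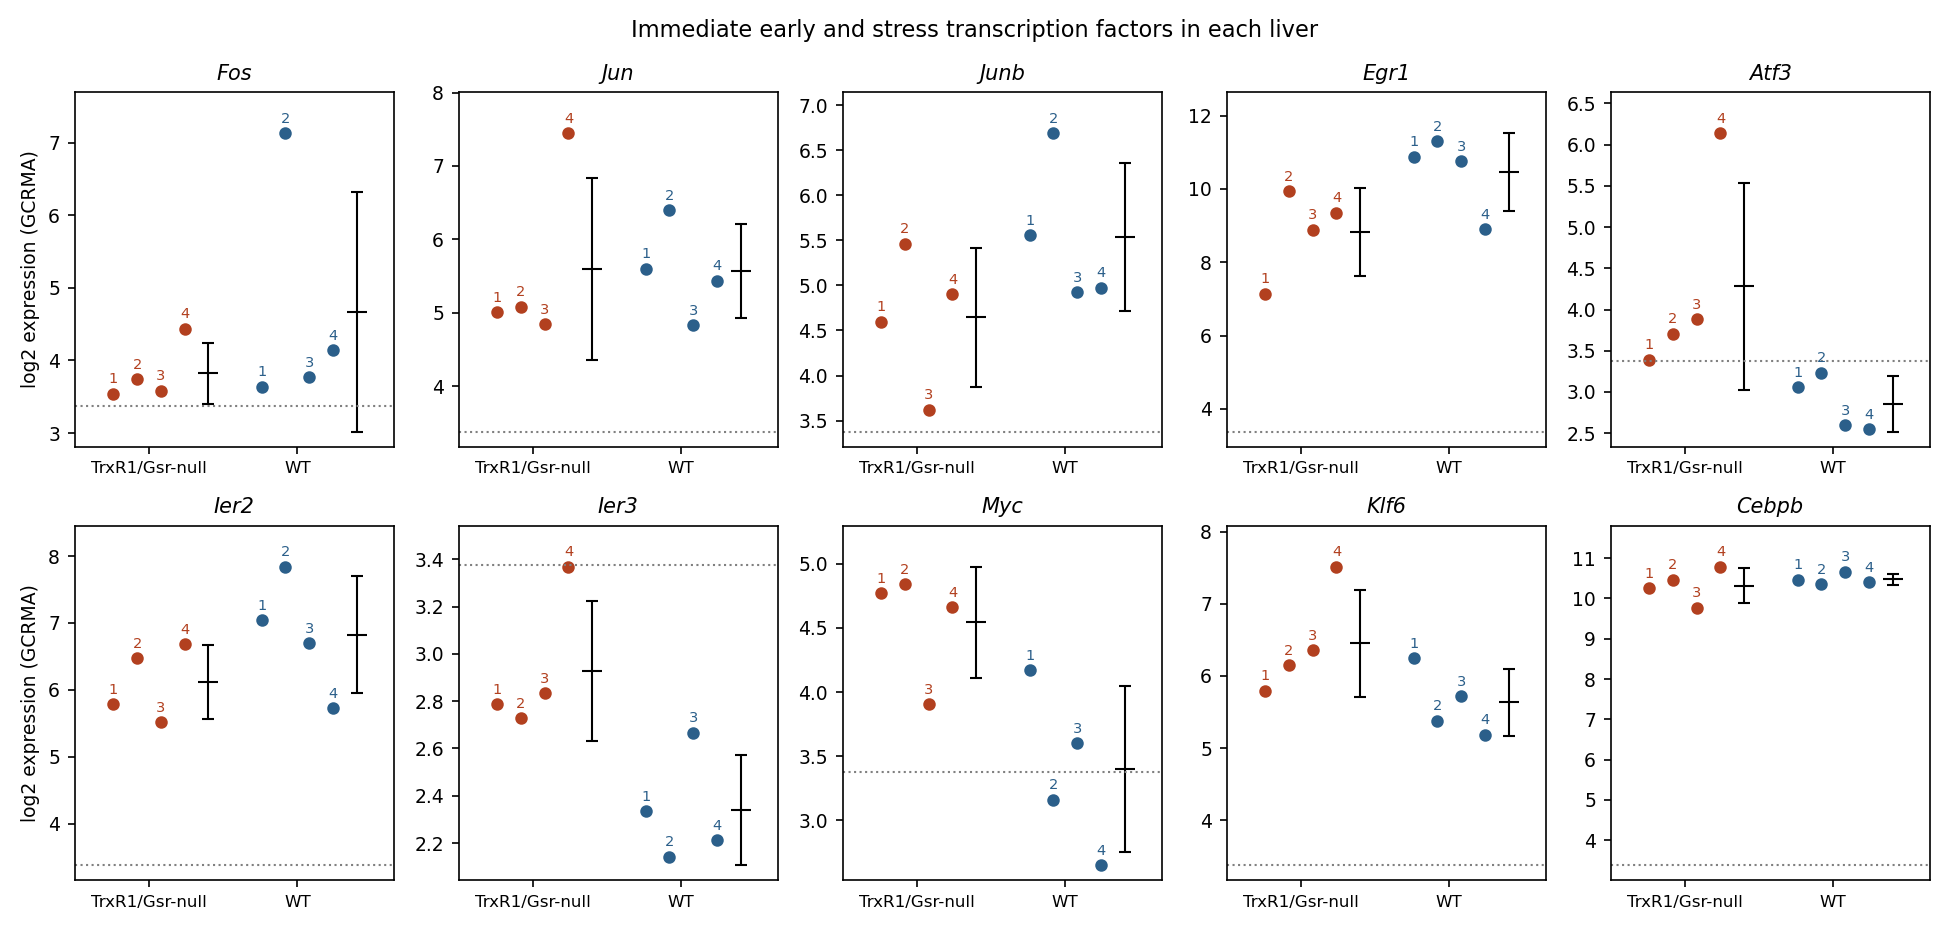
Log2 expression (GCRMA) of the probe set used for each of the 10 members in 4 TrxR1/Gsr-null livers (red, left) and 4 WT livers (blue, right), with replicate numbers beside the points. Bars are mean ± SD and the dotted line is the low-value limit of 3.38; Fos is high in WT replicate 2 alone, Jun and Atf3 are highest in TrxR1/Gsr-null replicate 4, and Ier3 lies below the limit on all 8 arrays.

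Fos, which needs a Jun partner to bind DNA, had log2 values of 3.54, 3.74, 3.58 and 4.44 in TrxR1/Gsr-null livers, against 3.64, 7.13, 3.77 and 4.14 in WT livers (replicates 1 to 4 here and below). WT replicate 2 stood far above the other 7, and the remaining values of the genotypes overlapped. The difference was −0.85 (SE 0.67, 95% interval −2.34 to 0.64, limma adjusted p = 0.492). Without WT replicate 2 it was −0.03.

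Jun, the AP-1 subunit that can also pair with itself, had 5.01, 5.08, 4.84 and 7.45 in TrxR1/Gsr-null livers, against 5.60, 6.40, 4.83 and 5.44 in WT livers. TrxR1/Gsr-null replicate 4 was the highest of the 8, and the other 3 livers of that genotype lay at the low end of the WT range. The mean difference was 0.03 (SE 0.56, 95% interval −1.21 to 1.26, limma adjusted p = 0.985), and without that liver it was −0.59. Its sign also turned under quantile scaling (−0.15) and median centring (−0.0375). The other Jun probe set gave 5.11, 4.81, 5.46 and 7.22 in TrxR1/Gsr-null livers, against 5.41, 5.61, 5.58 and 5.08 in WT livers. The same TrxR1/Gsr-null liver was highest there too.

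Junb, a Jun relative that often opposes Jun on growth genes, had 4.60, 5.46, 3.62 and 4.90 in TrxR1/Gsr-null livers, against 5.55, 6.69, 4.92 and 4.97 in WT livers. The TrxR1/Gsr-null livers lay toward the low side and the groups overlapped. The difference was −0.89 (SE 0.46, 95% interval −1.90 to 0.13, limma adjusted p = 0.281), and −0.51 without WT replicate 2. Of the other AP-1 and leucine zipper partners listed, 4 of 10 passed the filter (median difference 0.30). In either direction 0 were called, where 6.62% of all genes were. Fosb, Fosl1 and Fosl2 were below the filter. Jund, the Jun protein least dependent on a stimulus, had 8.47, 8.41, 8.14 and 8.74 in TrxR1/Gsr-null livers, against 9.21, 8.93, 8.87 and 9.95 in WT livers. All 4 TrxR1/Gsr-null values lay below all WT values, as for 5.84% of genes, with a difference of −0.80 and a limma adjusted p of 0.0995. With the replicate block Jund was called lower (adjusted p = 0.0375). On a list of AP-1 targets, 4 genes passed the filter, and 0 were called, against the same 6.62% (median difference 0.11). So few genes at that share would give few calls or none. With the replicate block, the chemokine Cxcl1 among them was called higher (0.95, limma adjusted p = 0.0217).

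Atf3, a stress-induced factor that often represses, had 3.39, 3.71, 3.88 and 6.14 in TrxR1/Gsr-null livers, against 3.06, 3.23, 2.59 and 2.55 in WT livers. The groups did not overlap, with TrxR1/Gsr-null above WT as for 10.7% of genes (16.6% separated in either direction), and all 4 WT values were below the low-value limit. Only the 4 TrxR1/Gsr-null arrays exceeded the limit, and they lifted the mean over all 8 arrays (3.57) above it. Atf3 thus passed the filter through the group where it was higher. Its separation, fold, interval and p are therefore given as a description only. The difference of 1.42 (SE 0.52, 95% interval 0.27 to 2.58), a 2.68-fold higher mean, was not called (limma adjusted p = 0.137). Without TrxR1/Gsr-null replicate 4 it was 0.80 (limma adjusted p = 0.108).

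Egr1, a zinc finger factor induced through SRF, had 7.14, 9.93, 8.89 and 9.35 in TrxR1/Gsr-null livers, against 10.88, 11.30, 10.75 and 8.90 in WT livers. In 3 WT livers the values were above every TrxR1/Gsr-null liver, while WT replicate 4 lay among them. The difference was −1.63 (SE 0.63, 95% interval −3.04 to −0.22), a 3.10-fold lower mean, with an unadjusted limma p of 0.0272 (0.160 adjusted). Leaving out single livers gave −2.15 (without WT replicate 4) to −1.07 (without TrxR1/Gsr-null replicate 1).

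Ier2, a nuclear protein induced with Fos, had 5.79, 6.47, 5.52 and 6.68 in TrxR1/Gsr-null livers, against 7.04, 7.84, 6.69 and 5.72 in WT livers. As for Egr1, 3 WT livers were above every TrxR1/Gsr-null liver and WT replicate 4 was not. The difference was −0.71 (SE 0.42, 95% interval −1.65 to 0.23, limma adjusted p = 0.357). It was −0.37 without WT replicate 2 and −1.08 without WT replicate 4.

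Ier3, a stress-induced regulator of cell survival, had 2.79, 2.73, 2.83 and 3.37 in TrxR1/Gsr-null livers, against 2.33, 2.14, 2.67 and 2.21 in WT livers. All TrxR1/Gsr-null values were above all WT values, yet all 8 were below the low-value limit and Ier3 was not among the genes tested. The same separation was seen in 10.7% of the genes tested, and its share among genes left out by the filter was not counted. In the fit without a filter the difference was 0.59 (95% interval 0.17 to 1.01, limma adjusted p = 0.151).

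**Figure D2:**
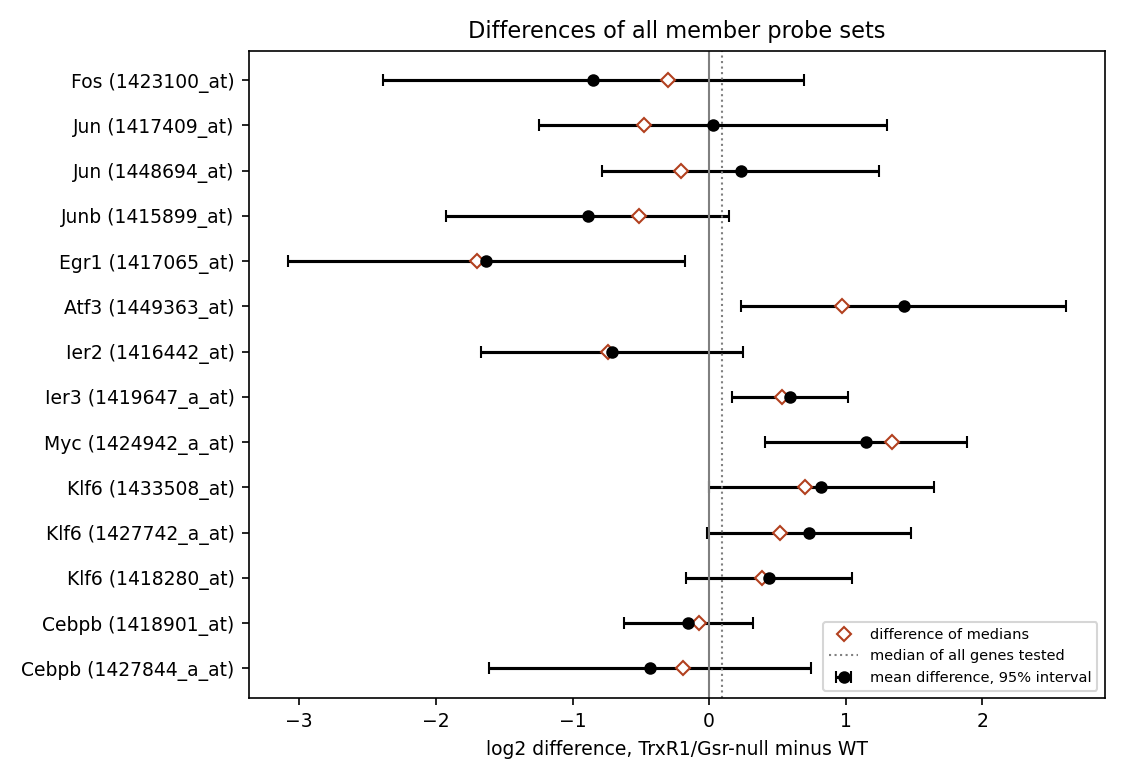
Log2 difference, TrxR1/Gsr-null minus WT, of all 14 member probe sets with 95% intervals from the limma fit over all probe sets (points and bars), and the difference of the group medians (open diamonds). The dotted line is the median of all genes tested, 0.096; Egr1, Fos, Junb and Ier2 lie to the left of zero, Atf3, Ier3, Myc and the 3 Klf6 probe sets to the right, and for both Jun probe sets mean and median fall on opposite sides.

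Myc, a growth factor-induced regulator of ribosome production and cell growth that binds DNA with Max, had 4.77, 4.84, 3.91 and 4.66 in TrxR1/Gsr-null livers, against 4.17, 3.16, 3.60 and 2.65 in WT livers. Values in 3 TrxR1/Gsr-null livers were above every WT liver, TrxR1/Gsr-null replicate 3 lay below WT replicate 1, and 2 WT values were below the low-value limit. The difference was 1.15 (SE 0.33, 95% interval 0.41 to 1.89), a 2.22-fold higher mean, with an unadjusted limma p of 0.0061 and an adjusted p of 0.0698. It was the member with the smallest p, and it did pass the threshold without WT replicate 1 (1.41, limma adjusted p = 0.024), with array weights (adjusted p = 0.011) and with replicates 1 and 2 against 3 and 4 as a block (adjusted p = 0.032). Of 8 tested factors of the Myc network, 0 were called, where 6.62% of all genes were (median difference 0.04). Max differed by 0.37 (limma adjusted p = 0.424). Of 16 tested Myc targets of ribosome biogenesis and growth, 1 (6.25%) was called higher, near the 4.47% of all genes. None was called lower, where 2.15% of all genes were, and the median difference was 0.41. The called gene was Nop56, a core protein of box C/D snoRNPs (1.10 ± 0.27 SE, limma adjusted p = 0.0403). The call held in 1 of 8 fits that left out a liver. Its probe set carries a suffix for shared sequence, and without such probe sets Nop56 differed by 0.51 (limma adjusted p = 0.299) and no target was called. With the replicate block, 5 of these 16 targets were called higher: Nop56, Srm, Nolc1, Eif4e and Nop58. Other alternatives called from 0, as without the filter on low values, to 6, with replicates 1 and 2 against 3 and 4 as a block. Both blocks also called more of all genes, with counts in the last section. The 4.47% above is the share of the unpaired fit, so it is not the background of the block counts.

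Klf6, a Krüppel-like zinc finger factor induced by injury, had 5.80, 6.15, 6.36 and 7.51 in TrxR1/Gsr-null livers, against 6.24, 5.38, 5.72 and 5.19 in WT livers. The TrxR1/Gsr-null values ran higher but WT replicate 1 lay within their range. The difference was 0.82 (SE 0.37, 95% interval 0.0044 to 1.64, limma adjusted p = 0.216). Leaving out TrxR1/Gsr-null replicate 4 gave 0.47. The other Klf6 probe sets differed by 0.73 and 0.44, in the same direction. Of 6 further Krüppel-like factors tested, 0 were called, where 6.62% of all genes were (median difference −0.34). Klf2, Klf4 and Klf10 were counted with the other immediate early transcription factors, where Klf10 was called lower.

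Cebpb, a leucine zipper factor of liver metabolism and the acute phase, had 10.26, 10.46, 9.77 and 10.79 in TrxR1/Gsr-null livers, against 10.47, 10.36, 10.67 and 10.40 in WT livers. The TrxR1/Gsr-null values lay on both sides of the narrow WT range. The difference was −0.15 (SE 0.23, limma adjusted p = 0.743), and its other probe set gave −0.43. Of 10 acute phase genes known as C/EBPβ targets, 2 (20%) were called higher and 0 lower, against 4.47% and 2.15% of all genes. Their median difference was 0.37. The called genes were Lcn2, an iron-scavenging secreted protein (3.13 ± 0.51 SE, 8.73-fold, limma adjusted p = 0.0060), and Saa3, an acute phase apolipoprotein (1.47 ± 0.32 SE, 2.78-fold, limma adjusted p = 0.0231). Lcn2 had 10.87, 10.96, 10.29 and 11.80 in TrxR1/Gsr-null livers, against 6.72, 8.60, 9.01 and 7.09 in WT livers. The groups did not overlap, with TrxR1/Gsr-null above WT as for 10.7% of genes. Lcn2 stayed called with each liver left out in turn, Saa3 in 5 of 8 such fits. Lcn2 is also carried by neutrophils, of whose listed markers 4 of 7 (Ngp, Camp, Ltf and Elane) were below the limit on all 8 arrays. The 3 tested markers had a median difference of 1.14 and 0 were called. S100a8 had 5.40, 5.57, 5.27 and 5.38 in TrxR1/Gsr-null livers, against 5.12, 4.13, 4.04 and 3.14 in WT livers. Its groups did not overlap either, as for the same 10.7% of genes (1.30, limma adjusted p = 0.0541). S100a9 differed by 1.14 (limma adjusted p = 0.108) and Csf3r by −0.08. All 7 measured markers summed to 97.7 to 137 in TrxR1/Gsr-null livers and 57.5 to 104 in WT livers, and their part in the result was not tested.

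**Figure D3:**
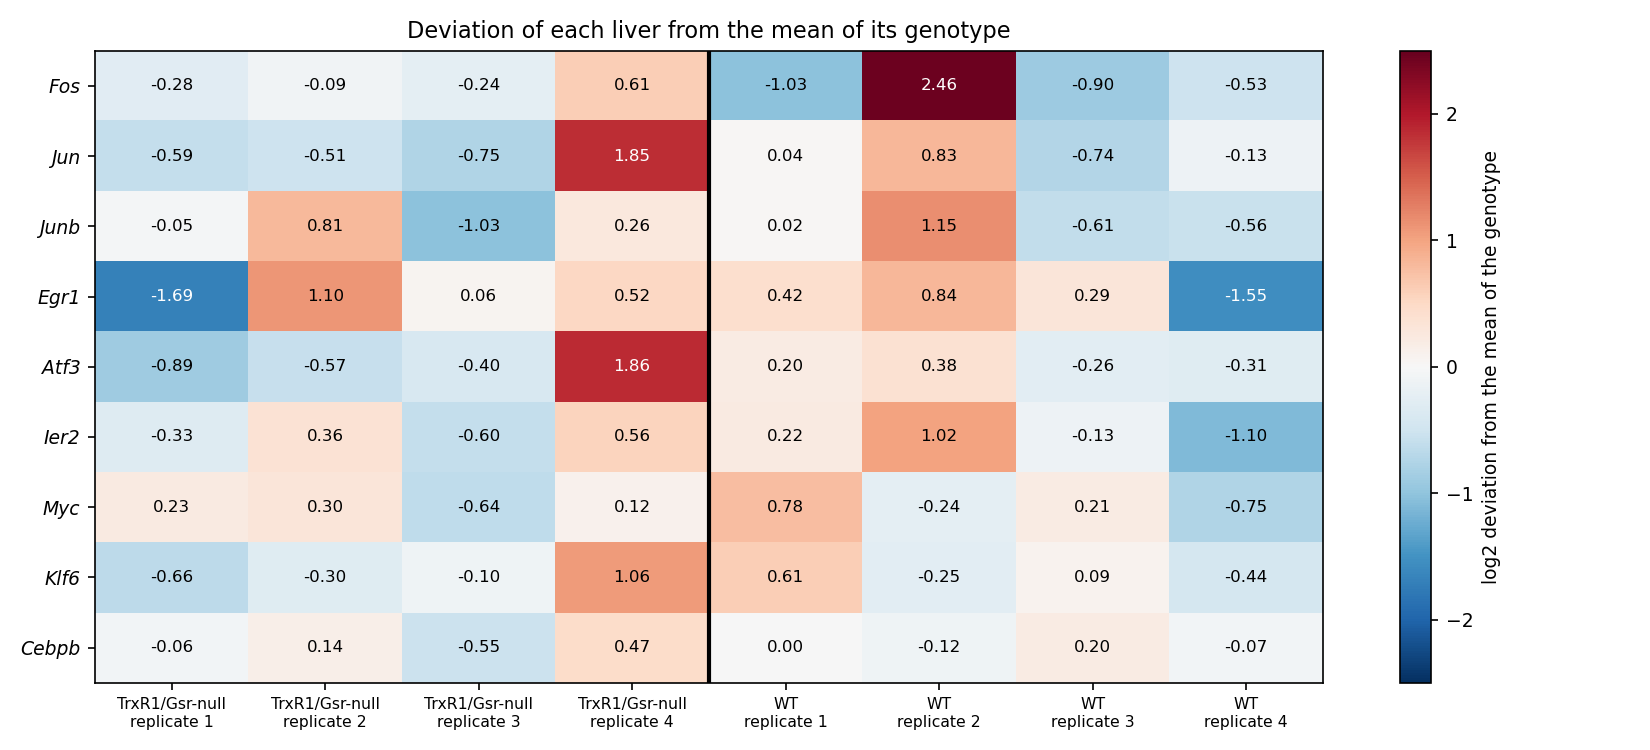
Deviation of each liver from the mean of its genotype (log2, colour and number) for the 9 tested members, with the 4 TrxR1/Gsr-null livers left of the line and the 4 WT livers right of it. TrxR1/Gsr-null replicate 4 reaches 1.85 for Jun and 1.86 for Atf3, and WT replicate 2 reaches 2.46 for Fos.

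The members varied widely between livers of 1 genotype. The within-group SD was 1.21 for Fos, at the 99.6th percentile of tested genes, 1.14 for Egr1, 0.99 for Jun and 0.92 for Atf3, where the median gene had 0.35. Of the 9, 6 exceeded the 90th percentile. TrxR1/Gsr-null replicate 4 and WT replicate 2 were then left out because of their high values, which by itself lowers the SD of the genes concerned. Without both, 2 of 9 exceeded the 90th percentile, namely Egr1 (1.27) and Junb (0.70), and the SD was 0.20 for Fos, 0.30 for Jun and 0.27 for Atf3. The number was 4 without TrxR1/Gsr-null replicate 4 alone and 5 without WT replicate 2 alone. The SD was not recomputed with other livers left out, so the drop describes these values and is no test.

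TrxR1/Gsr-null replicate 4 held the highest value of its genotype for 6 of 9 members (Fos, Jun, Atf3, Ier2, Klf6 and Cebpb; 66.7%), and for 25.1% of all tested genes. The other 3 members were highest in TrxR1/Gsr-null replicate 2. WT replicate 2 was the highest WT liver for 6 of 9 members (Fos, Jun, Junb, Egr1, Atf3 and Ier2), and for 27.6% of all tested genes. Fos, Jun, Atf3 and Ier2 were highest in both of these livers. Without both, again 0 members were called in either direction. The 3′ to 5′ difference of Actb probe sets, a sign of RNA quality, was 1.14 in TrxR1/Gsr-null replicate 4 and 1.08 in WT replicate 2, within the 1.01 to 1.76 of all arrays. The same difference for Gapdh was −0.70 in TrxR1/Gsr-null replicate 4, outside the −0.45 to −0.23 of the other 7 arrays, and −0.26 in WT replicate 2. Its part in the results that rest on that liver was not tested. TrxR1/Gsr-null replicate 3 and WT replicate 4 each held the lowest value of their genotype for 5 of 9 members. Over all tested genes the shares were 33% and 44.8%. These livers also had the highest Actb differences of all arrays, 1.76 in TrxR1/Gsr-null replicate 3 and 1.57 in WT replicate 4. WT replicate 3 came next, and the remaining arrays had 1.01 to 1.17. For Gapdh the values were −0.35 in TrxR1/Gsr-null replicate 3 and −0.23 in WT replicate 4. The part of RNA quality in the low member values, those of Egr1 and Ier2 in WT replicate 4 among them, was not tested.

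The same TrxR1/Gsr-null liver led other immediate early genes. Of 27 tested immediate early genes that are not transcription factors, 22 (81.5%) had their highest TrxR1/Gsr-null value in replicate 4, as did 6 of 12 other immediate early transcription factors. Genes named in the rest of this paragraph were chosen after their values were seen. Gadd45b, a stress sensor protein, had 2.86, 3.13, 2.99 and 4.50 in TrxR1/Gsr-null livers, against 3.56, 3.78, 3.19 and 3.56 in WT livers. Its relative Gadd45g had 4.26, 3.61, 3.71 and 5.85 in TrxR1/Gsr-null livers, against 4.01, 4.73, 3.66 and 3.73 in WT livers. In both, replicate 4 stood alone above all other livers. Of 11 tested genes of the C/EBP family and the ATF4 arm, 7 were also highest in TrxR1/Gsr-null replicate 4 (median difference 0.41). Of these 11, 0 were called, where 6.62% of all genes were. Ddit4, an mTORC1 inhibitor of this arm, had no overlap between the groups, as for 10.7% of genes, and differed by 1.06 (limma adjusted p = 0.0569). It was called higher in 7 of 21 alternatives, the replicate block among them (adjusted p = 0.0459). Ddit3, the stress factor CHOP, had 4.11, 4.46, 3.82 and 6.00 in TrxR1/Gsr-null livers, against 4.19, 4.07, 3.59 and 3.73 in WT livers. Among WT livers, replicate 2 was highest for 11 of the 27 other immediate early genes (40.7%) and 3 of the 12 other transcription factors, against 27.6% of all genes and 34.7% of the 754 with the largest within-group SD. An example was Dusp1, a MAP kinase phosphatase, at 9.83, against 6.54, 8.68 and 8.20 in WT replicates 1, 3 and 4.

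**Figure D4:**
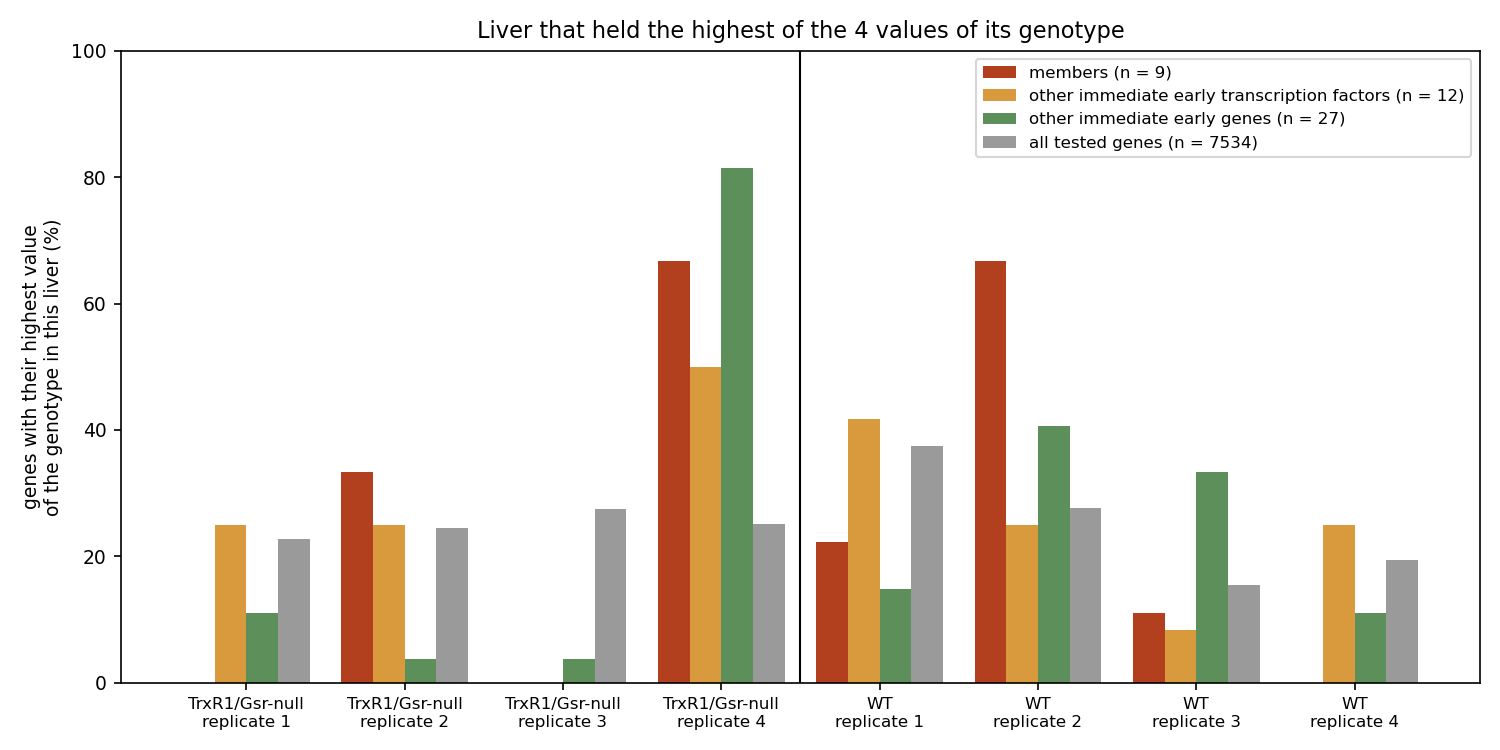
Percentage of genes whose highest value of the 4 livers of a genotype fell in each liver, for 9 members, 12 other immediate early transcription factors, 27 other immediate early genes and all 7534 tested genes, with TrxR1/Gsr-null livers left of the line and WT livers right of it. Members reach 66.7% in TrxR1/Gsr-null replicate 4 and in WT replicate 2, and the 27 other genes reach 81.5% in TrxR1/Gsr-null replicate 4.

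For the 4 members with the widest range, the genes most alike in their deviations from the genotype means are given as a description, by Pearson's r over 8 arrays that share these livers. Atf3 was closest to Trib3 (0.988), a pseudokinase of the ATF4 pathway, then Macroh2a1 and Atox1 (0.978 each). Trib3 had 4.77, 5.22, 5.23 and 7.15 in TrxR1/Gsr-null livers, against 4.83, 4.97, 4.24 and 4.59 in WT livers, again with replicate 4 far above the rest. Fos was closest to Dclre1a (0.977), Kdm4b (0.954) and Yaf2 (0.924). Egr1 was closest to Ift172 (0.961), BC003965 (0.958) and Tdo2 (0.949), and Junb to Tmem222 (0.980), Gdf10 (0.976) and Tpcn1 (0.968). Fos and Atf3 each have 1 liver far from the others.

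Among the other immediate early genes, on lists chosen with earlier results of these data known, 4 were called lower. Of 12 tested transcription factors, 3 (25%) were called lower and 0 higher, with a median difference of −0.50. Over all genes 2.15% were called lower and 4.47% higher, with a median of 0.096. Bhlhe40, a repressor that links the clock to stress and hypoxia, had 7.09, 7.71, 6.06 and 8.11 in TrxR1/Gsr-null livers, against 8.997, 9.47, 10.39 and 10.28 in WT livers. Klf10, a Krüppel-like factor induced by TGF-β and tied to hepatic metabolism, had 6.13, 6.47, 5.71 and 6.99 in TrxR1/Gsr-null livers, against 7.72, 8.51, 8.47 and 8.35 in WT livers. In both genes every TrxR1/Gsr-null liver was below every WT liver, as for 5.84% of all tested genes. Bhlhe40 fell by 2.54 (SE 0.45, 5.83-fold, limma adjusted p = 0.0089) and Klf10 fell by 1.94 (SE 0.29, 3.83-fold, limma adjusted p = 0.0041), and both stayed called with each liver left out in turn, though not within replicates 3 and 4 alone.

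Id1, an inhibitor of helix-loop-helix factors induced by BMP signals, had 6.24, 6.60, 6.02 and 7.27 in TrxR1/Gsr-null livers, against 8.93, 8.23, 7.07 and 7.99 in WT livers. The groups overlapped only through TrxR1/Gsr-null replicate 4 and WT replicate 3. Id1 fell by 1.52 (SE 0.39, 2.87-fold, limma adjusted p = 0.0453), and the call held in 2 of 8 fits that left out a liver. Egr2 and Egr3 were below the filter, and Nr4a1, an orphan nuclear receptor, differed by −0.60 (limma adjusted p = 0.182). Of the 27 other immediate early genes, 1 (3.7%) was called lower, near the 2.15% of all genes, and 0 higher, with a median difference of −0.15. With the replicate block Nfkbia, the NF-κB inhibitor, was also called lower (−1.37, limma adjusted p = 0.0159). Ccn2, a matricellular protein, had 4.14, 4.46, 3.99 and 4.63 in TrxR1/Gsr-null livers, against 5.23, 5.35, 4.92 and 4.91 in WT livers. The groups did not overlap, with TrxR1/Gsr-null below WT as for 5.84% of genes. Ccn2 fell by 0.80 (SE 0.21, 1.74-fold, limma adjusted p = 0.0461), a call that no fit leaving out a liver kept (adjusted p 0.0513 to 0.123). Of 13 upstream kinases and serum response factors tested, 0 were called, where 6.62% of all genes were (median difference 0.14). Srf differed by 0.14.

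**Figure D5:**
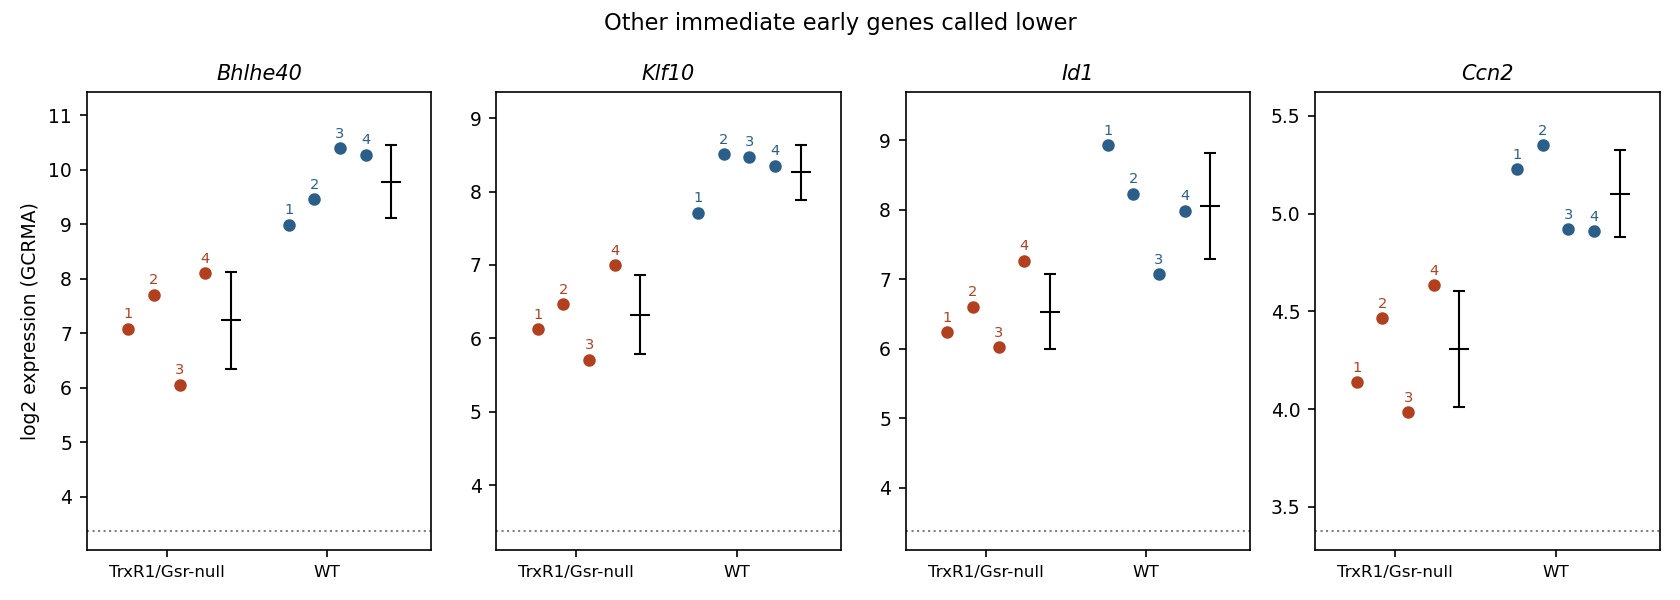
Log2 expression (GCRMA) of the 4 other immediate early genes called lower, in 4 TrxR1/Gsr-null livers (red, left) and 4 WT livers (blue, right), with replicate numbers beside the points and bars for mean ± SD. The dotted line is the low-value limit of 3.38; the groups are separate for Bhlhe40, Klf10 and Ccn2 and overlap for Id1.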

How the data were processed

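Liver RNA of 4 TrxR1/Gsr-null and 4 WT mice was measured on 1 array per animal. The authors deposited 1 log2 value per probe set and array, made with GCRMA per the submitters' processing notes (version and settings not given in the sources used here). No label states the scale, and a log2 scale fits the range of 0.53 to 14.6. GCRMA draws low values toward each other. Arrays give no counting depth, and their number limits the precision.

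Of 22690 probe sets, 20380 carry 1 gene symbol in the platform annotation, 691 several and 1555 none, and 64 are controls. Symbols were updated through RefSeq gene identifiers (20351 matched). For each gene the probe set with the highest mean was kept, with _x_at sets put aside where another kind existed, which gave 12393 genes. Those among the lowest 40% by mean were dropped unless at least 4 arrays exceeded that limit (98 kept this way), leaving 7534.

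Genotypes were compared in R 4.3.3 with limma 3.58.1 (lmFit, eBayes, two-sided, Benjamini-Hochberg). All 14 member probe sets also came from a fit over 22626 probe sets without the filter. The fit was tested on simulated data over 7534 genes with 200 changed. It called 1.49% of changes of 0.5 log2, 25.4% of changes of 1 and 86.4% of changes of 2, with 5.06% false among calls. Most changes of 1 log2 or less would thus be missed. More genes were called in the data (337 higher and 162 lower) than were changed in the simulation. Fos, Egr1, Jun and Atf3 had within-group SDs of 0.92 to 1.21, where the median gene had 0.35. The simulated shares are therefore not the shares for these members.

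Members, lists and tests were chosen with earlier results of these data known. Named genes are all members, up to 6 called genes per list and direction, the first 3 members of a list where uncalled, and the 3 genes most alike in pattern for 4 members; other names were chosen after their values were seen. Titles number the biological replicates 1 to 4 in both genotypes. Deviations of same-numbered livers correlated at 0.21 to 0.37 over genes, which met the rule for also running the replicate block. The titles state no pairing, and these correlations, given for same numbers only, do not show one. All p-values, SEs and calls given come from the unpaired fit of the 2 genotypes unless the replicate block is named. No arrays held identical values (highest r 0.994). Alternatives were the filter, the probe set rule, scaling, array weights, the prior, blocks, fits within replicates 1 and 2 or 3 and 4, and each liver left out. Leaving out TrxR1/Gsr-null replicate 4 and WT replicate 2 together was added after seeing the data.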

Additional observations from a re-analysis of the deposited data

Results flagged for a closer look

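In 4 of the 28 groups of 4 values given by the 14 member probe sets (14.3%), the highest or lowest liver was separated from the nearest other by a share of the range past Dixon's 95% critical value. Chance flags about 1 in 20 groups, and over all probe sets 5.17% of groups did so. These 4 were the Fos value of 7.13 in WT replicate 2, the Jun value of 7.45 in TrxR1/Gsr-null replicate 4 (the probe set used for the gene), the Ier3 value of 3.37 in TrxR1/Gsr-null replicate 4, which is below the low-value limit, and the Cebpb value of 6.23 in TrxR1/Gsr-null replicate 3 (the second probe set). The first 3 were high and the Cebpb value was low.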

How the results depend on the processing

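Junb, Egr1, Atf3, Ier2, Myc and Klf6 kept their direction under every alternative run. Jun turned to −0.15 with quantile scaling, −0.0375 with median centring, −0.57 with array weights (−0.54 and −0.16 for its probe sets in the fit over all probe sets), −0.95 and −0.55 within replicates 1 and 2, −0.40 without WT replicates 3 and 4, and −0.31 and −0.23 without TrxR1/Gsr-null replicate 4 and WT replicate 2. With single livers left out it ran from −0.59 to 0.30 (second probe set −0.29 to 0.51) and Cebpb from −0.31 to 0.0303 (second probe set −0.79 to 0.0678), turned by leaving out TrxR1/Gsr-null replicate 3; it was −0.35 without TrxR1/Gsr-null replicate 4 and WT replicate 2. Fos turned to 0.0519 within replicates 3 and 4. The cause of these turns was not tested.

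Members called higher were 1 (Myc) with array weights and with the block of replicates 1 and 2 against 3 and 4, and 0 to 1 with a liver left out. Members called lower were 1 with array weights (Ier2, −1.09, limma adjusted p = 0.050) and 0 with every single liver left out. Over all genes, 337 were called higher and 162 lower. With a liver left out these were 196 to 387 and 75 to 134. Quantile scaling gave 271 lower, array weights 578 higher and 428 lower, the block of replicates 1 and 2 against 3 and 4 647 and 334, replicates 3 and 4 alone 162 and 30, leaving out WT replicates 3 and 4 187 higher, and leaving out TrxR1/Gsr-null replicate 4 and WT replicate 2 158 and 57. The replicate block called 454 higher and 240 lower and no member (Myc adjusted p = 0.056, Junb 0.059), so it changed no member's call; the other listed genes it called are named beside their lists. Bhlhe40, Klf10 and Lcn2 lost their call within replicates 3 and 4 (limma adjusted p = 0.0534, 0.0665 and 0.0848), and Bhlhe40 also without WT replicates 3 and 4 (0.0694). Quantile scaling moved the median of all genes by −0.11. The precision is limited by 4 livers per genotype, and for Atf3, Ier3 and Myc also by values below the low-value limit.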
